A study of Mus musculus with 6 samples.

Results

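RNA of the amino acid transporter families of the solute carriers was compared between mouse breast cancer cells positive and negative for the surface proteins CD24 and CD29. The members were the probe sets whose only gene symbol named the family SLC1, SLC3, SLC6, SLC7, SLC36, SLC38 or SLC43 followed by the letter a and a number. This gave 118 of the 45101 probe sets on the array and 58 of its 18193 named genes, and the rule used no measured value. A probe set that names Slc1a2 beside another gene was left out, and Slc6a20a and Slc6a20b, whose symbols end in a letter, are outside the rule. The groups were CD24+CD29+ and CD24-CD29-, with 3 arrays each, and the labels call the cells of both groups breast cancer stem cells. Both groups came from cells grown in DMEM with 10% fetal bovine serum, and no cell line, genotype, strain, age or donor animal is named in the sources used here. The sample sets are described as biological and independent, but nothing says whether they were separate cultures or sorts, so the p-values speak of the variation among these 6 arrays only, and some of that may be technical.

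These proteins carry amino acids and related compounds across the plasma membrane and the membrane of the lysosome. Sodium-coupled carriers of SLC1, SLC6 and SLC38 concentrate their substrates in the cell, whereas many SLC7 carriers exchange an amino acid inside the cell for one outside. Several SLC7 proteins are light chains that reach the cell surface only when bound to a heavy chain, Slc3a2 (CD98) or Slc3a1. Glutamine, leucine and arginine that enter through such carriers feed protein synthesis and are sensed at the lysosome by mTORC1, the kinase complex of the mTOR pathway that the series' title names. In the mammary gland several of these carriers supply amino acids for milk protein. SLC6 also holds carriers of noradrenaline, dopamine, serotonin, taurine, creatine and betaine, and Slc43a3 carries purine nucleobases, so the families are wider than amino acids.

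RNA of the sorted proteins was read in both groups. Cd24a, which encodes CD24, had a mean of 12.995 in CD24+CD29+ cells and 12.787 in CD24-CD29- cells, a 1.16-fold difference, with 1 of its 2 other probe sets past the threshold in reverse. Itgb1, which encodes CD29, had means of 10.94 and 10.06, a 1.83-fold difference, with 1 of 5 others in reverse. The group names therefore stand for the labelled sort, and RNA of Cd24a was high in the cells labelled negative. Over probe sets, which are not independent replicates, Pearson's r was 0.997 to 0.998 within a group and 0.974 to 0.979 across groups. The labelled breast cancer origin was set against 10 epithelial genes: none had a mean below 6 on the deposited log2 scale, and their mean level was 11.8 to 11.9 on CD24+CD29+ arrays and 11.9 on each CD24-CD29- array. Within that list 3 were higher and 5 were lower. The basal keratins Krt14 and Krt5 were higher, with differences of 0.99 and 0.65, and so was Krt7, at 0.38. The luminal genes Krt19, Krt18 and Cldn4 were lower, with differences of -0.95, -0.42 and -0.53. Krt8 and Cldn3 were lower by less, with differences of -0.17 and -0.28, and Cdh1 and Epcam did not pass. Fibroblast markers were also read, and 11 of 12 were higher in CD24+CD29+ cells, with mean levels of 9.52 to 9.56 against 8.71 to 8.72; leukocyte markers were mostly dim, with 9 of 14 below 6, and 10 of 14 were lower. The part of these cell types, and of the basal and luminal genes, in the transporter values was not tested. In RNA from sorted bulk cells, fewer cells of a type and less RNA per cell cannot be told apart. The added poly-A control RNAs read 1.08 lower on CD24+CD29+ arrays, and scaling to them adds that amount to every difference, so that the median over all genes becomes 1.05 in place of -0.035. Directions below are therefore given on the scale as deposited, and every member that was lower turns positive under that scaling.

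Transporters that were higher in CD24+CD29+ cells were led by Slc43a3, at 3.81-fold, followed by Slc6a2, Slc7a6, Slc36a4, Slc6a6 and Slc7a1. For Slc6a2 only the brightest probe set was higher, and dimmer ones passed as lower, at -0.41 and -0.19. Transporters that were lower included the arginine and lysine carrier Slc7a3 and the epithelial neutral amino acid carrier Slc6a19, whose signal was dim. Each gene was read by its probe set with the highest mean, leaving out those ending in _x_at where another existed, and a gene passed when its limma p was under 0.05 after Benjamini-Hochberg adjustment across the 45037 probe sets that are not controls. Of the 58 genes, 15 were higher, 22 were lower and 21 did not pass, against a background in which 68.9% of all genes passed, 33.4% higher and 35.5% lower. The arrays of the groups did not overlap for 39 of the 58, where the background was 73.6% of genes. Neither count lies above its background, so the number of changed members is not a result about the families. The median difference of the members, always taken as CD24+CD29+ less CD24-CD29- in log2, was -0.11, against -0.035 over all genes, and it was 0.11 without the dimmest 40% of probe sets, which left 34 of the 58 genes, against 0.10 over the genes left.

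Only Slc43a3 passed with a difference of at least 2-fold, a size that 4.67% of all genes reached. Slc6a2, at 1.98-fold, joined it when CD24+CD29+ replicate 2 or CD24-CD29- replicate 2 was left out, which made the count 2. At 1.5-fold, 8 members were higher and 4 were lower, where 11.7% and 6.07% of all genes were. Over probe sets, 31 of 118 were higher, 43 were lower and 44 did not pass, where 63.9% of all probe sets passed, 29.2% higher and 34.8% lower. At 2-fold, 3 member probe sets were higher and 0 lower, against 3.43% of all in either direction. At 1.5-fold, 16 were higher and 4 lower, against 9.43% and 4.98%. The arrays of the groups did not overlap for 76 of the 118, where the background was 68.2%.

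**Figure D1:**
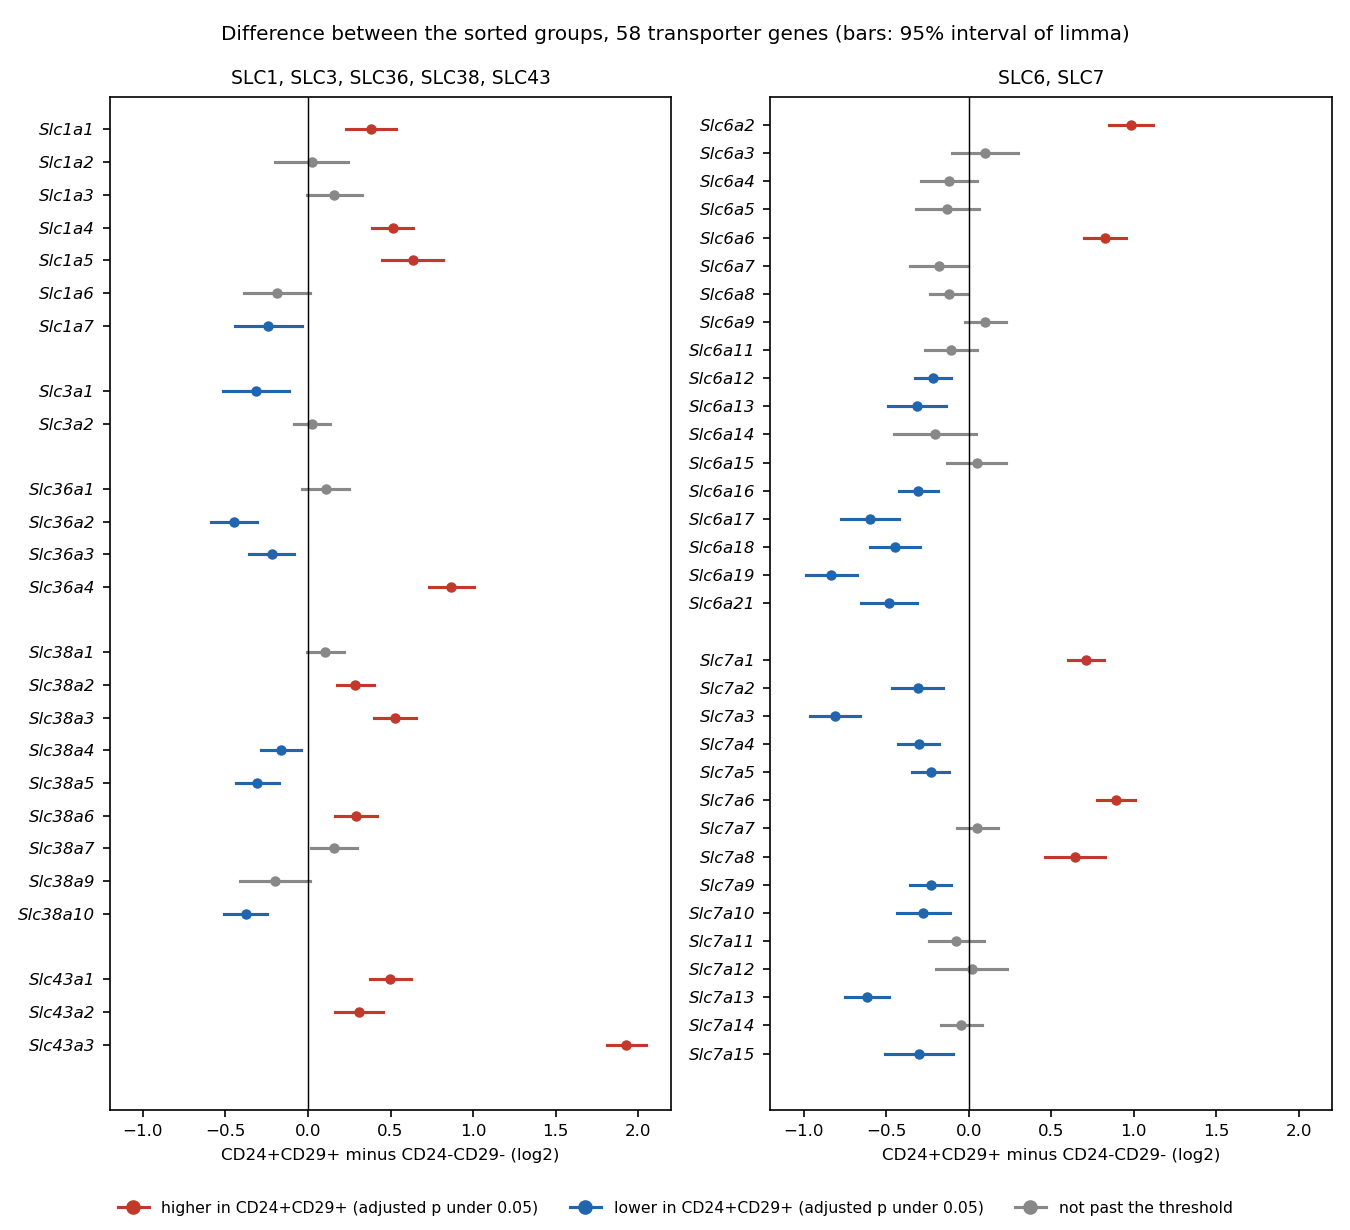
Difference between CD24+CD29+ and CD24-CD29- cells on the log2 scale (x axis) for each of the 58 transporter genes (y axis, grouped by family), as a point with the 95% interval of the limma fit. The 15 higher genes include all 3 members of SLC43, and Slc43a3, at 1.93, lies apart from the rest.

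The direction of a member followed its signal level, as it did for genes in general. Of 25 members with a mean below 6, none was higher and 16 were lower (64%), while of all 6298 genes at that level 6.91% were higher and 50.3% were lower. Erythroid genes, which these cells should lack, had mean levels of 5.15 to 5.24 on CD24+CD29+ arrays and 5.43 to 5.55 on CD24-CD29- arrays, and 2 of 3 of them passed as lower. Other mostly dim lists did not show this shift. Endothelial genes, 6 of 8 below 6, read 5.374 to 5.45 on CD24+CD29+ arrays and 5.329 to 5.465 on CD24-CD29- arrays, with 2 higher and 1 lower. Adipocyte genes, 4 of 5 below 6, read 5.421 to 5.515 and 5.405 to 5.469, with 1 higher and 2 lower. The files hold no detection calls, so the RNA of members at this level cannot be told from background. The median difference was -0.23 over these members and -0.19 over all genes at that level. Slc6a19, at -0.83, and Slc7a13, at -0.62, were the 2 of them lower by at least 1.5-fold. Of 19 members with a mean of 8 or more, 12 were higher (63.2%) and 2 were lower, with a median of 0.31, while 53.9% of the 7384 genes at that level were higher and their median was 0.19. Quantile normalization, which gives every array the same spread, left 15 members higher and 16 lower.

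**Figure D2:**
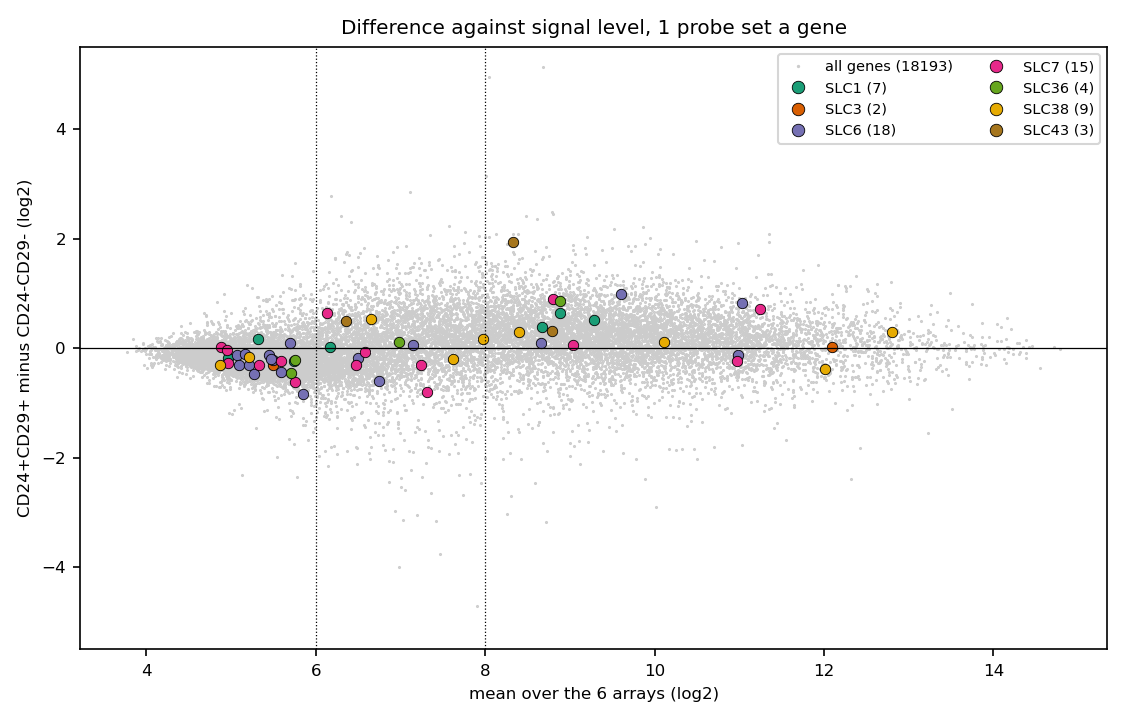
Difference between the groups (y axis, log2) against the mean over the 6 arrays (x axis, log2) for all 18193 genes in grey and for the transporter genes, coloured by family; dotted lines mark levels 6 and 8. No member below 6 passed as higher, and most members above 8 lie above 0.

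All 3 members of SLC43, facilitative carriers that need no ion gradient, were higher. Slc43a3, the equilibrative nucleobase carrier, read 9.33, 9.27 and 9.29 in CD24+CD29+ cells and 7.43, 7.35 and 7.33 in CD24-CD29- cells. The lowest CD24+CD29+ array lay well above the highest CD24-CD29- array, and the difference was 1.93 (SE 0.052, 3.81-fold, limma adjusted p = 8.65e-08). It had the largest difference of the 58 members in size. The gene is read by 1 probe set. Slc43a1 (LAT3), a carrier of branched-chain amino acids and phenylalanine, read 6.57, 6.68 and 6.58 in CD24+CD29+ cells and 6.08, 6.15 and 6.10 in CD24-CD29- cells. That is a difference of 0.50 (SE 0.054) without overlap. Slc43a2 (LAT4), a carrier of the same kind, read 8.90, 8.98 and 8.97 in CD24+CD29+ cells and 8.64, 8.54 and 8.74 in CD24-CD29- cells, and its groups did not overlap either. Its difference of 0.31 (limma adjusted p = 0.00276) did not pass after quantile normalization, at 0.099, and all 3 of its probe sets were higher as deposited. Slc43a1 and Slc43a3 are near neighbours in the genome, with 1 protein-coding gene between them.

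**Figure D3:**
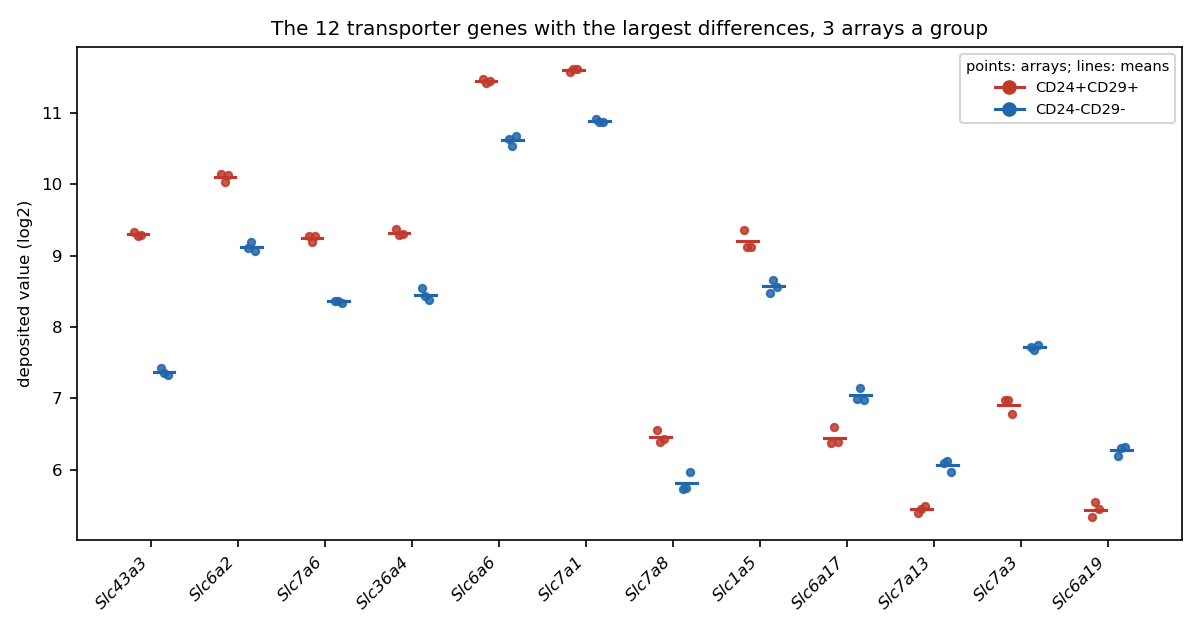
Deposited log2 values (y axis) on each array for the 12 transporter genes with the largest differences past the threshold (x axis), with lines at the group means. The arrays of the groups are separate for all 12, and 8 are higher and 4 lower in CD24+CD29+ cells.

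The neutral amino acid exchangers of SLC1 were higher. Slc1a5 (ASCT2), the sodium-dependent exchanger through which many tumour cells take up glutamine, read 9.36, 9.12 and 9.12 in CD24+CD29+ cells and 8.48, 8.66 and 8.56 in CD24-CD29- cells. All CD24+CD29+ arrays were above all CD24-CD29- arrays, by 0.63 (SE 0.08, 1.55-fold, limma adjusted p = 0.000172). Its other, dimmer probe set went the other way, at -0.48, and the mean of the pair, 0.077, did not pass. Slc1a4 (ASCT1), an exchanger of serine, alanine and cysteine, read 9.59, 9.48 and 9.55 in CD24+CD29+ cells and 9.03, 9.08 and 8.98 in CD24-CD29- cells. It was higher by 0.51 (SE 0.056, 1.43-fold, limma adjusted p = 7.12e-05), and its other probe sets were higher too, by 1.05 and 0.40. Slc1a1 (EAAT3), a glutamate and aspartate carrier that also takes up cysteine, read 8.96, 8.83 and 8.80 in CD24+CD29+ cells and 8.43, 8.58 and 8.44 in CD24-CD29- cells. Its difference was 0.38 (SE 0.066, 1.30-fold, limma adjusted p = 0.00112), and its other probe sets rose by 0.38 and 0.75. The glutamate carriers known from glia and neurons were dim: Slc1a2, Slc1a3 and Slc1a6 did not pass on their main probe sets, and Slc1a7 was lower by a difference of -0.24.

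The heavy chain Slc3a2 did not pass, while its light chains went in different directions. Slc3a2 read 12.11, 12.09 and 12.13 in CD24+CD29+ cells and 12.07, 12.11 and 12.07 in CD24-CD29- cells. The groups overlapped, and the 95% interval of the difference ran from -0.084 to 0.13. Slc7a5 (LAT1), the light chain that imports leucine and other large neutral amino acids, read 10.87, 10.82 and 10.88 in CD24+CD29+ cells and 11.08, 11.09 and 11.09 in CD24-CD29- cells. The arrays were separate and the fall was small, -0.23 (SE 0.048, 1.17-fold, limma adjusted p = 0.00293). Slc7a6, which exports arginine in exchange for glutamine and sodium, read 9.27, 9.19 and 9.28 in CD24+CD29+ cells and 8.36, 8.37 and 8.34 in CD24-CD29- cells. It was higher in every CD24+CD29+ array, by 0.89 (SE 0.051, 1.86-fold, limma adjusted p = 2.02e-06), and its other probe set was higher by 0.73. Its close relative Slc7a7 read 9.13, 8.99 and 9.07 in CD24+CD29+ cells and 8.99 to 9.04 in CD24-CD29- cells, with overlapping groups and an interval of -0.072 to 0.18; after quantile normalization its difference was -0.15 and passed. Slc7a8 (LAT2), another carrier of neutral amino acids, read 6.56, 6.39 and 6.43 in CD24+CD29+ cells and 5.73, 5.74 and 5.97 in CD24-CD29- cells. The groups did not overlap, and it was higher by 0.64 (SE 0.079, limma adjusted p = 0.000145). Its mean in CD24-CD29- cells, 5.82, is dim, so no fold is given.

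Slc7a11 (xCT), which brings in cystine for glutathione in exchange for glutamate, read 6.53, 6.49 and 6.61 in CD24+CD29+ cells and 6.76, 6.54 and 6.55 in CD24-CD29- cells. The groups overlapped, the difference did not pass (limma adjusted p = 0.385), and its interval ran from -0.24 to 0.09. Slc7a10, a carrier of small neutral amino acids, had means of 4.83 and 5.11 in CD24+CD29+ and CD24-CD29- cells. The second heavy chain, Slc3a1, read 5.23, 5.45 and 5.35 in CD24+CD29+ cells and 5.73, 5.76 and 5.48 in CD24-CD29- cells. Its partner Slc7a9, with which it takes up cystine and dibasic amino acids in the kidney, had means of 5.48 and 5.71. Slc7a13, a second light chain of the kidney, had means of 5.45 and 6.06, a difference of -0.62, and its other probe set did not pass. All 4 of these dim genes were lower, and those of Slc3a1, Slc7a9 and Slc7a10 did not pass after quantile normalization.

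**Figure D4:**
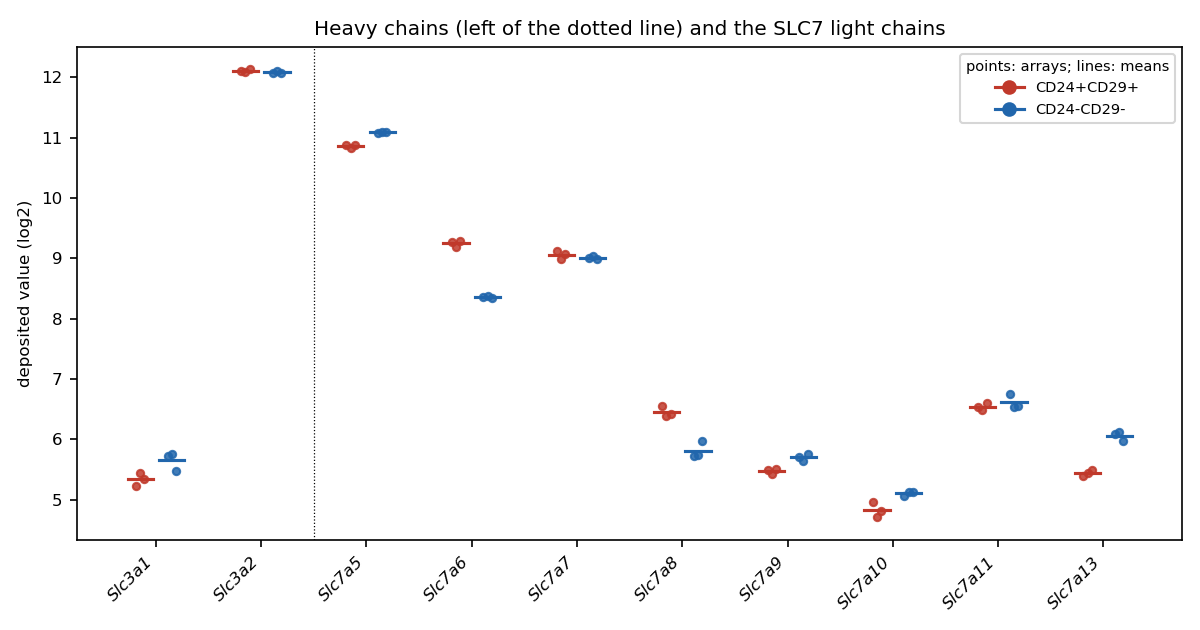
Deposited log2 values (y axis) on each array for the heavy chains Slc3a1 and Slc3a2, left of the dotted line, and 8 light chain genes of SLC7 (x axis), with lines at the group means. The Slc3a2 arrays overlap, those of Slc7a6 and Slc7a8 are higher in CD24+CD29+ cells, and those of Slc7a5 are slightly lower.

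The cationic amino acid carriers of SLC7 split. Slc7a1 (CAT1), the widely expressed importer of arginine, lysine and ornithine, read 11.58, 11.61 and 11.61 in CD24+CD29+ cells and 10.92, 10.87 and 10.87 in CD24-CD29- cells. The arrays of each group lay within 0.05 of each other, and the difference was 0.71 (SE 0.048, 1.63-fold, limma adjusted p = 5.22e-06). A second bright probe set was higher by 0.52, and the dimmest one did not pass. Slc7a3 (CAT3) read 6.98, 6.97 and 6.78 in CD24+CD29+ cells and 7.72, 7.68 and 7.75 in CD24-CD29- cells, separate in the other direction, a difference of -0.81 (SE 0.066, 1.75-fold, limma adjusted p = 1.31e-05). Slc7a2 (CAT2), at -0.31, and the related Slc7a4, at -0.30, were lower as well, with means of 6.32 and 7.09 in CD24+CD29+ cells. The remaining SLC7 members were dim: Slc7a12 and Slc7a14 did not pass, and Slc7a15 was lower by a difference of -0.30.

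Among the sodium-coupled SLC38 carriers, Slc38a2 (SNAT2), the system A carrier of glutamine, alanine and serine that cells raise when amino acids run short, had a high signal in both groups. It read 12.98, 12.92 and 12.94 in CD24+CD29+ cells and 12.63, 12.69 and 12.67 in CD24-CD29- cells. The groups were separate, and the difference was 0.28 (SE 0.049, 1.22-fold, limma adjusted p = 0.00103). A second probe set rose by 0.52 and the remaining one did not pass. Slc38a1 (SNAT1) read 10.18, 10.14 and 10.16 in CD24+CD29+ cells and 10.02, 10.07 and 10.07 in CD24-CD29- cells and did not pass although its arrays were separate, with an interval of -0.0049 to 0.22; its other probe set was higher by 0.34. Slc38a1 passed with the mean of both probe sets, at 0.22 (limma adjusted p = 0.00122), after median centring, under limma-trend, in the fit over 1 probe set a gene and without the dimmest 40%, and its sign turned after quantile normalization and cyclic loess. Slc38a3, a system N carrier that moves glutamine with histidine and asparagine, read 6.83, 6.96 and 6.96 in CD24+CD29+ cells and 6.42, 6.39 and 6.37 in CD24-CD29- cells. It was higher by 0.53 (SE 0.056, 1.44-fold, limma adjusted p = 6.20e-05). Its relative Slc38a5 had means of 4.72 and 5.03 and was lower by a difference of -0.31, at the level where most genes were. Slc38a4 was dim as well, with a difference of -0.16.

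None of the lysosomal carriers Slc38a9, Slc38a7 and Slc36a1 passed. Slc38a9, which senses arginine in the lysosome for mTORC1, read 7.70, 7.41 and 7.44 in CD24+CD29+ cells and 7.84, 7.71 and 7.60 in CD24-CD29- cells, and the groups overlapped. Its difference of -0.20 (SE 0.092, limma adjusted p = 0.0855) missed the threshold; without CD24+CD29+ replicate 1 it was -0.29, with an adjusted p of 0.0156, and without CD24-CD29- replicate 3 it was -0.26, with an adjusted p of 0.048. After quantile normalization it was -0.37 and passed (limma adjusted p = 0.00335), and it passed with the mean of its 7 probe sets, at -0.16. Slc38a9 also passed as lower after cyclic loess, under limma-trend and with the replicate block. Slc38a7, which exports glutamine and asparagine from the lysosome, read 8.14, 7.99 and 8.04 in CD24+CD29+ cells and 7.86, 7.85 and 7.98 in CD24-CD29- cells. Its arrays were separate by a small gap, and the adjusted p was 0.0515; it was 0.0425 without CD24+CD29+ replicate 2 and 0.0289 without CD24-CD29- replicate 3. After median centring Slc38a7 passed at 0.21, and after quantile normalization its difference was -0.036. Slc36a1 (PAT1), a proton-coupled carrier of glycine, alanine and proline found on lysosomes, read 7.11, 7.06 and 6.92 in CD24+CD29+ cells and 6.89, 6.97 and 6.92 in CD24-CD29- cells, with overlap and an interval of -0.038 to 0.25. Slc36a4 (PAT4), which carries proline and tryptophan, stood apart from its family. It read 9.37, 9.29 and 9.30 in CD24+CD29+ cells and 8.55, 8.43 and 8.38 in CD24-CD29- cells, a difference of 0.87 (SE 0.059, 1.82-fold, limma adjusted p = 5.26e-06). Slc36a2 and Slc36a3, which neighbour Slc36a1 in the genome, were dim and lower, by differences of -0.45 and -0.22.

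In SLC6 the osmolyte and transmitter carriers differed from each other. Slc6a6 (TauT), the taurine carrier, read 11.47, 11.42 and 11.45 in CD24+CD29+ cells and 10.64, 10.54 and 10.68 in CD24-CD29- cells. The groups were far apart relative to their spread, and the difference was 0.82 (SE 0.056, 1.77-fold, limma adjusted p = 4.97e-06). Of its other probe sets, 2 were higher, by 1.53 and 0.78, and a dim probe set was lower, at -0.24. Slc6a8, the creatine carrier, read 10.96, 10.87 and 10.93 in CD24+CD29+ cells and 11.04, 11.06 and 11.02 in CD24-CD29- cells. Its arrays were separate, yet the difference of -0.12 did not pass, while its other probe set, at 9.16 against 8.36, was higher by 0.80; this gene was singled out after its values were seen. Slc6a9, the glycine carrier GlyT1, did not pass on either probe set.

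Slc6a2, named for the noradrenaline carrier of nerve cells, read 10.14, 10.03 and 10.13 in CD24+CD29+ cells and 9.10, 9.19 and 9.06 in CD24-CD29- cells. This probe set was higher by 0.98 (SE 0.058, 1.98-fold, limma adjusted p = 2.42e-06), but the other 3 probe sets of the gene had means of 5.15 to 6.90 in either group and differences of 0.056, -0.19 and -0.41, and the mean of all 4 was 0.11. The higher level therefore rests on 1 probe set. Slc6a19 (B0AT1), the neutral amino acid carrier of kidney and gut epithelium, read 5.33, 5.54 and 5.44 in CD24+CD29+ cells and 6.19, 6.30 and 6.32 in CD24-CD29- cells. Its CD24-CD29- arrays were all above the CD24+CD29+ arrays, by a difference of -0.83 (SE 0.068, limma adjusted p = 1.32e-05). Its mean in CD24+CD29+ cells, 5.44, lies at the level of the erythroid genes, so no fold is given, and its dimmer probe set was lower too, at -0.17. Slc6a17, a vesicular carrier of neutral amino acids in neurons, read 6.37, 6.59 and 6.38 in CD24+CD29+ cells and 6.99, 7.15 and 6.98 in CD24-CD29- cells. It was lower by a difference of -0.60 (SE 0.077, 1.51-fold, limma adjusted p = 0.000191), and its other probe sets were lower too, at -0.56 and -0.30. The carriers of dopamine (Slc6a3), serotonin (Slc6a4), neuronal glycine (Slc6a5) and proline (Slc6a7), the GABA carrier Slc6a11, and Slc6a14 and Slc6a15, carriers of neutral and other amino acids, did not pass. The dim Slc6a12, Slc6a13, Slc6a16, Slc6a18 and Slc6a21 were lower, at -0.22 to -0.48.

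Of the 30 members with more than 1 probe set, 6 had probe sets past the threshold in both directions, a pattern found in 21.7% of all genes with several probe sets. They were Slc1a5, Slc6a2, Slc6a6, Slc38a6, Slc38a9 and Slc38a10. Slc38a10 was the least certain of them. Its main probe set, the brightest, read 11.81, 11.90 and 11.75 in CD24+CD29+ cells and 12.23, 12.15 and 12.22 in CD24-CD29- cells, lower by a difference of -0.38 (SE 0.057, 1.30-fold, limma adjusted p = 0.000499). The next brightest pair were higher by 0.85 and 0.93, 3 dimmer ones were lower, 1 did not pass, and the mean of all 7 was 0.046, so no direction is given for this gene. Slc38a9 has 7 probe sets as well, of which 3 were lower, 1 was higher by 0.30, and 3 did not pass. Slc38a6 was higher on its bright probe set, by 0.29, and lower on a dim one, by a difference of -0.21, and the first did not pass after quantile normalization, at 0.090. The files do not say which transcript or exon a probe set reads.

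**Figure D5:**
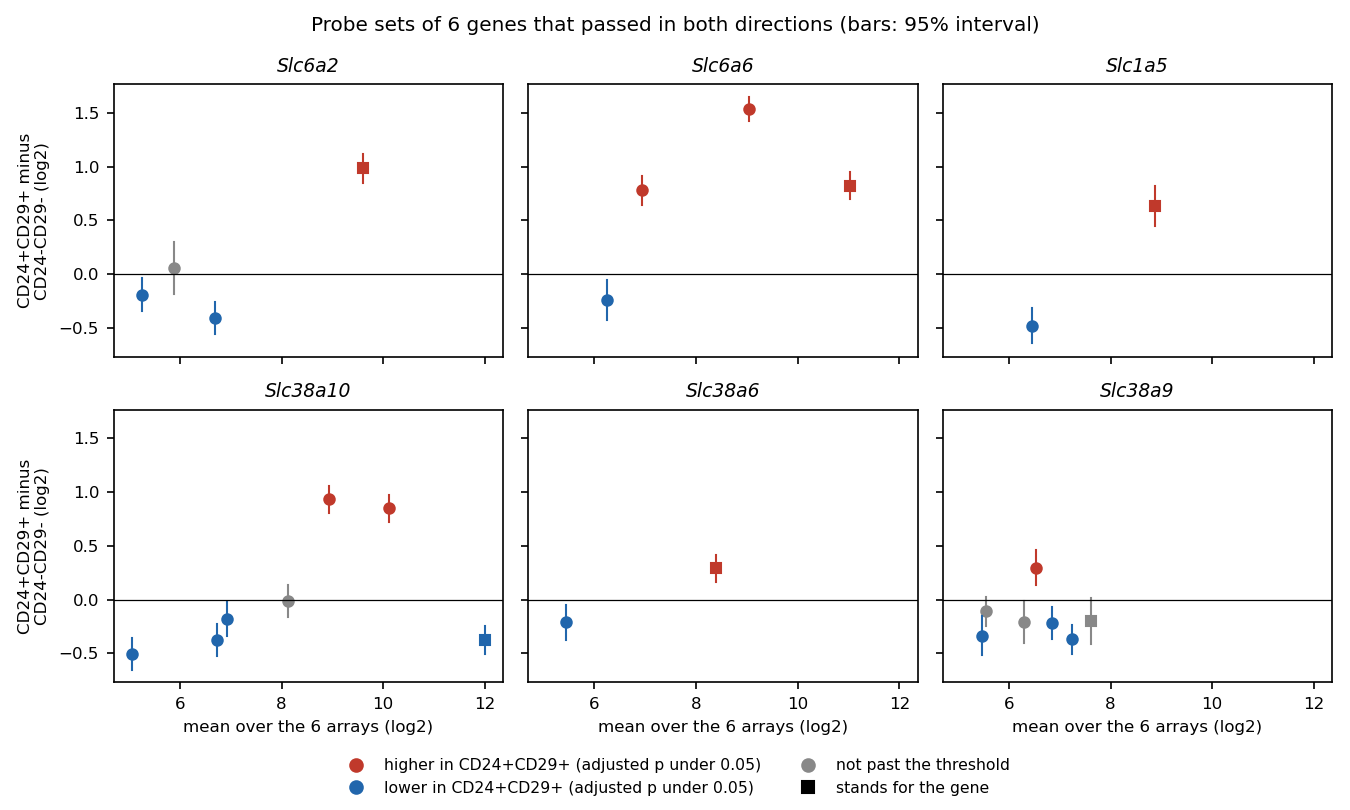
Difference between the groups (y axis, log2, with the 95% interval) against the mean over the 6 arrays (x axis, log2) for every probe set of the 6 genes whose probe sets passed in both directions; squares stand for the gene. In Slc6a2, Slc6a6, Slc1a5 and Slc38a6 the lower probe sets are dimmer than the one that stands for the gene, while in Slc38a10 the brightest probe set is lower.

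Neighbouring members were set side by side. Both of Slc6a18 and Slc6a19 were lower, as were both of Slc6a12 and Slc6a13 and both of Slc6a16 and Slc6a21, and no protein-coding gene lies within these pairs in RefSeq. All of these but Slc6a19 have means below 6 in both groups. Slc38a1, Slc38a2 and Slc38a4 lie in a row, and their differences were 0.11, 0.28 and -0.16.

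Promoter sequences bear on these genes because ATF4, the transcription factor induced when amino acids run short, raises several carriers through a composite element. RefSeq promoters of the assembly GRCm38.p6, 250 bases before to 50 bases after a transcript start, were at hand for 41 of the 58 genes. The core letters TGATGNAA were found on either strand in 4 of these 41 genes (9.76%) and in 4.51% of all genes with a promoter. A gene counts if any of its promoters matches, and the 41 genes have 62 promoters, where all 27025 genes have 32851. By promoter, 5 of the 62 held the core, against 3.97% of all promoters, and a site shared by overlapping Slc7a7 promoters counts for both. Those 4 promoters are shown, with the matching letters in capitals, because their genes did not move together: Slc1a4 was higher, Slc6a21 was lower, and Slc7a11 and Slc7a7 did not pass.
Slc7a11, chr3:50443564-50443863, minus strand: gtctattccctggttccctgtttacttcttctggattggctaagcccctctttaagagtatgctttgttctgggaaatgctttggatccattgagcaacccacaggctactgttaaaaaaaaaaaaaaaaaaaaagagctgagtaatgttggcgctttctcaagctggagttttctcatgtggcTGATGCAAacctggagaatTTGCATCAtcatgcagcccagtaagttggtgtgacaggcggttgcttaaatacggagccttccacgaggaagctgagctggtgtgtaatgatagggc
Slc1a4, chr11:20332664-20332963, minus strand: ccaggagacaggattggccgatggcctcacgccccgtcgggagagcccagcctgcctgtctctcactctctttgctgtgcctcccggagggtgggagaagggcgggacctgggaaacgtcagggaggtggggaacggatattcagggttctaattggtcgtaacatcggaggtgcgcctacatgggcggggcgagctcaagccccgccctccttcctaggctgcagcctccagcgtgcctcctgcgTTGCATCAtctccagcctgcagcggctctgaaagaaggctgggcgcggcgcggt
Slc7a7, chr14:54417895-54418194, minus strand: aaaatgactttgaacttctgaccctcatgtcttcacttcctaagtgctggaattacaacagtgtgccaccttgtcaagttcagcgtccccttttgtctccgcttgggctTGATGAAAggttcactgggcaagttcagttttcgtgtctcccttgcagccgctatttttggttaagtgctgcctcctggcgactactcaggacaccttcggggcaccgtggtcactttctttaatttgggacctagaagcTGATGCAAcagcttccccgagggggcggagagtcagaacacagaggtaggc
Slc6a21, chr7:45282623-45282922, plus strand: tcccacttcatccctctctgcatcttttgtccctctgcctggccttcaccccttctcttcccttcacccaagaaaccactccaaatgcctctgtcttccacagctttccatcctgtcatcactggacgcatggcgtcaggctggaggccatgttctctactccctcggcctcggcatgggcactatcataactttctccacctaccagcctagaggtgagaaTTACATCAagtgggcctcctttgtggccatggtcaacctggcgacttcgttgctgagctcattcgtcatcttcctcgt
The Slc7a11 promoter holds the core on each strand, 58 and 39 bases before the start. In Slc1a4 it overlaps the start, in Slc7a7 it lies 133 bases before the start and again over it, and in Slc6a21 it ends 20 bases before it. A match describes letters and not a bound site. A second Slc7a7 promoter, with a later start, overlaps the one shown. It holds the same site that lies over the earlier start, 235 bases before its own start. Of other motifs searched on both strands, the antioxidant response element core TGANNNNGC was in 26 of the 41 genes (63.4%, and 45% of all genes), the E-box CACGTG in 9 (22% and 8.09%), and the CLEAR element of TFEB, which contains the E-box, in none (0.37% of all genes). By promoter, the antioxidant core was in 34 of the 62, against 41.3% of all promoters, and the E-box in 9, against 7.15%. Of the 26 genes with the antioxidant core, 7 were higher, 10 were lower and 9 did not pass.

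Genes that use or sense the carried amino acids were counted from 9 lists, which share no gene with the members. In all, 135 of 186 measured genes passed, 76 higher and 59 lower, beside a background of 68.9% of genes, 33.4% higher and 35.5% lower. Of genes with a mean of 8 or more, 53.9% were higher and 22.4% lower. Among aminoacyl-tRNA synthetases and their scaffold proteins, which load tRNAs with amino acids, 17 of 21 were higher and none was lower. This list is bright, with a median level of 10.29. Its median difference was 0.57, against -0.035 over all genes and 0.19 over those with a mean of 8 or more. Of the higher ones, Farsa had 2 other probe sets that passed in reverse, and Eprs and Hars had 1 each. Cars, the cysteine enzyme, was 2.59-fold higher, and its other probe set was lower and passed. Vars, for valine, was 2.23-fold higher (log2 1.16, SE 0.055, limma adjusted p = 8.93e-07), Tars, for threonine, 2.15-fold and Wars, for tryptophan, 1.89-fold. Of 20 genes of serine, glycine and one-carbon metabolism, 12 were higher and 3 were lower. Phgdh, of serine synthesis, was 1.74-fold lower. Psat1, of the same synthesis, did not pass on its main probe set, and 1 other probe set passed as higher. Shmt2, the mitochondrial enzyme that makes glycine from serine, was 2.99-fold higher (8.68 ± 0.04 against 7.10 ± 0.14, SD, n = 3), Mthfd1l 2.02-fold, Mthfd1 1.95-fold and Psph, the last enzyme of serine synthesis, 1.92-fold.

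Of 17 genes of glutamine, glutamate, aspartate and proline metabolism, 10 were higher and 5 were lower. Aldh18a1, which starts proline synthesis, was higher, at 6.67 against 5.54. The second value lies at the level of the erythroid genes, so no fold is given. Cad and Ppat, which use glutamine for pyrimidines and purines, were 1.98-fold and 1.86-fold higher. Gpt2, the mitochondrial alanine aminotransferase, was 2.33-fold lower, with 1 probe set that passed the other way. Of 17 genes of arginine and polyamine metabolism, 4 were higher and 10 were lower. Both arginases, which split arginine to ornithine and urea, were lower: Arg1 stood at 10.73 against 11.69 and Arg2 at 6.14 against 7.34. Gpt2 and Arg2 did not pass after scaling to the poly-A controls, and Arg1 turned positive. Asl, which makes arginine, was 2.29-fold higher and Srm, which makes spermidine, 1.70-fold. Of 15 branched-chain amino acid enzymes, 3 were higher and 7 were lower. The dehydrogenases Ivd and Hibadh and the complex subunit Dbt were lower by 1.69-fold, 1.54-fold and 1.53-fold, whereas Bckdk, the kinase that holds the complex inactive, was 1.49-fold higher.

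The lists of amino acid sensing and of the amino acid response were mixed. Of 28 genes of sensing at the lysosome, 12 were higher and 9 were lower, with a median of -0.013. The Rag GTPase gene Rragd was 8.13-fold lower, while Rraga, of the other Rag class, was 1.82-fold higher. Sesn3, a relative of the leucine sensor Sesn2, was 1.78-fold higher, as was Mios, of the GATOR complex, by 1.65-fold. Of 23 genes of ATF4 and the amino acid response, 5 were higher and 9 were lower. Atf4 itself was lower, at -0.24, Cebpg was 1.55-fold lower and Cth 1.49-fold, while Stc2 and Chac1 were 1.59-fold and 1.37-fold higher. Of 25 genes of glutathione and of NRF2 targets, 11 were higher and 6 were lower. The membrane glutathione transferase Mgst1 was 2.93-fold lower and the peroxidase Gpx2 2.63-fold lower, while Gsta4 and the reductase Gsr were 1.92-fold and 1.63-fold higher.

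Of 26 other amino acid and peptide carriers, a list that also holds pyruvate carriers, 6 were higher and 12 were lower. The peptide carrier Slc15a2 (PEPT2), which recovers di- and tripeptides, stood at 10.15 ± 0.05 against 11.92 ± 0.05 (SD, n = 3), a 3.40-fold fall (log2 -1.76, SE 0.053, limma adjusted p = 1.33e-07). Its lysosomal relative Slc15a4 was 1.98-fold higher, with 1 probe set that passed the other way. Slc15a3 was lower, at 4.92 against 5.85, and Slc16a10, which carries aromatic amino acids, at 5.98 against 6.76; both are dim, so no fold is given.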

How the data were processed

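The deposited values were log2 intensities per probe set on Affymetrix Mouse430_2 arrays; the authors made them with RMA and Partek, per the submitters' processing notes, with settings that the sources used here do not give. RMA subtracts background and normalizes between arrays, and it compresses differences of dim probe sets. The deposited arrays still differed in spread between the groups. Probe sets were named by the platform annotation, and the Entrez identifiers left all member symbols unchanged in RefSeq GRCm38.p6.

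CD24+CD29+ and CD24-CD29- arrays, 3 each, entered a fit by lmFit and eBayes (limma 3.58.1, R 4.3.3) on all 45037 probe sets that are not controls, with Benjamini-Hochberg adjustment over all of them and a threshold of 0.05, after no filter on low values. The fit was tested on simulated data with 50 probe sets changed at each size. It recovered 8% of log2 changes of 0.25, 60% of 0.5, 96% of 1.0 and 100% of 2.0. Far fewer probe sets were changed there than passed in the real data, so these shares need not hold for the real fit. Genes given in full were the 12 largest differences past the threshold with separate groups, the heavy and light chains, the brightest gene of each family, genes with probe sets past the threshold in both directions, and the lysosomal and glutamine carriers; of each list, up to 4 of the largest; others are named briefly. The members, lists and tests were chosen with earlier results of these data known. A planned comparison of protein sequences was not run. The number of arrays limits the precision.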

Additional observations from a re-analysis of the deposited data

How the results depend on the processing

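Results were recomputed under 18 alternatives that leave out an array, change the normalization, the filter, the variance model, the fitted features or the probe set that stands for a gene. Whether the 3 replicate numbers pair the arrays is not known. Deviations of same-numbered arrays correlated at 0.199, -0.0376 and 0.0512, and those of differently numbered arrays at -0.218 to 0.178. Deviations from a mean of 3 arrays are bound to each other, so these values cannot decide it. The replicate block gave 40 member genes past the threshold against 37, and 80 probe sets against 74. Leaving out an array gave 35 to 39 member genes, 66 to 72 member probe sets, 125 to 132 pathway genes (135 in all), and 1 or 2 members of at least 2-fold. Scaling to the poly-A controls put all 58 member genes and 118 probe sets past the threshold as higher and 0 as lower, 28 genes by at least 2-fold, with 180 pathway genes higher and 4 lower. Median centring gave 2 members of at least 2-fold. Without the dimmest 40%, 8 member genes and 18 probe sets were lower, and 17 genes and 32 probe sets were higher. This filter takes out dim probe sets. Of the 25 members with a mean below 6, 16 were lower and none was higher as deposited.

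Under the poly-A scaling these differences turned positive: Slc6a19 0.25, Slc7a3 0.27, Slc7a13 0.47, Slc6a17 0.49, Slc3a1 0.77, Slc7a5 0.85, Slc7a9 0.85, Slc7a10 0.81, Slc7a11 1.01, Slc38a10 0.70, Slc38a9 0.88, Slc38a5 0.78, Slc15a3 0.15, Slc16a10 0.30, Cebpg 0.45, Cth 0.51, Arg1 0.12, Ivd 0.32, Hibadh 0.46 and Dbt 0.46. Gpt2, at -0.14 (limma adjusted p = 0.124), and Arg2, at -0.11 (0.154), no longer passed under it. Small differences also changed sign: Slc3a2 to -0.016 after cyclic loess; Slc7a7 to -0.15 after cyclic loess and after quantile normalization and to -0.016 with the mean of its probe sets; Slc38a7 to -0.038 and Slc38a1 to -0.054 after cyclic loess, and to -0.036 and -0.050 after quantile normalization; Slc7a11 to 0.039 and Slc38a10 to 0.046 with the mean of probe sets. The cause was not tested beyond what each alternative changes. The files give no signal over background, so what it limits was not tested.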
